A study of Mus musculus with 36 samples.

Results

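The 10 genes described here, Klf2, Klf4, Thbd, Vwf, Cdh5, Pecam1, Vcam1, Icam1, Sele and Selp, encode the flow-responsive transcription factors, coagulation regulators, junction proteins and leukocyte adhesion molecules of vascular endothelium. They were taken by symbol from a count table of 49568 gene symbols, and all 10 were among the 18628 genes with enough counts to be tested. The table covers 36 mice of 2 inbred strains, 129X1/SvJ (129X1) and C57BL/6 (B6, which also appears as C57BL/6J in the labels). Each mouse gave 1 library, made from its left carotid artery 14 days after that artery had been ligated.

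Every mouse had its carotid artery ligated, vehicle mice included, so no unligated artery serves as a baseline. Mice were given sacubitril with valsartan (Sac/val) at 60 mg/kg/day, valsartan alone (Val) at 27 mg/kg/day, or vehicle (Veh) at 2 mL/kg/day. Valsartan blocks the angiotensin II type 1 receptor, and sacubitril adds inhibition of the peptidase neprilysin. The therapeutic regimen (T) started 7 days after ligation and lasted 7 days, and the prophylactic regimen (P) started 2 days before ligation and lasted 16 days. Regimen therefore changes the start and the length of dosing together, also for vehicle. Strain, treatment and regimen were fully crossed into 12 groups of 3 mice. A combination of treatment and regimen is called a stratum in the strain comparison.

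Endothelial cells sense the drag of flowing blood. Steady flow induces the transcription factors KLF2 and KLF4, which raise anticoagulant genes such as thrombomodulin and restrain the cytokine-driven induction of adhesion molecules. Inflamed endothelium displays selectins, which slow rolling leukocytes, and then VCAM-1 and ICAM-1, which hold them through integrins. Ligation of the common carotid artery interrupts its flow and is used as a model of neointima formation.

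Total counts ran from 18962081 to 28967579 reads per library, and the 36 libraries shared no identical column. The lowest count of any of the 10 genes in any library was 29 reads, for Sele, and the other 9 genes had at least 218. The 20 other endothelial identity genes examined, such as Tie1, Kdr and Tek, were all detected and summed to between 480.3 and 1426 CPM (counts scaled to equal library totals). Among B6 libraries, Val-P replicate 1 and Val-T replicate 1 stood low in many of the 10 genes, with Selp at 9.07 and 11.9 CPM. The libraries also held transcripts of neighbouring tissues in unequal amounts: Rag1, which thymocytes use to rearrange their receptors, reached 10 CPM in 16 of 36 libraries, namely 12 of 18 from 129X1 and 4 of 18 from B6. It was highest in the same B6 Val-P replicate 1 (1591 CPM) and B6 Val-T replicate 1 (869.5 CPM). The sum of 7 skeletal muscle genes ran from 10.6 to 33270 CPM, and that of 6 smooth muscle genes, which mark the arterial wall, from 226 to 3493 CPM.

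The 10 genes differed widely in level per length. Expressed as CPM per exonic kilobase over all 36 libraries, Cdh5 (VE-cadherin, the adherens junction cadherin) had a median level of 37.7 and Pecam1 (CD31, a junctional adhesion receptor) one of 34.1. Klf2 followed at 28.9, Thbd (thrombomodulin, the cofactor that turns thrombin towards protein C) at 24 and Klf4 at 20.6. Icam1 was at 11.7, Vwf (von Willebrand factor, which tethers platelets) at 9.27 and Vcam1 at 8.79. Selp (P-selectin, stored in Weibel-Palade bodies and platelet granules) was at 6.00 and Sele (E-selectin, made by cytokine-activated endothelium) at 1.44. The length used joins all annotated exons of a gene, 16064 bases for Vwf, 8870 for Vcam1 and 4360 for Icam1. It need not be that of the transcript expressed here, and the order depends on it. In CPM alone the median of Vcam1 (77.9) was above that of Icam1 (51.0). The ranges of all neighbours in the order per kilobase overlapped. Selp exceeded Sele in 36 of 36 libraries, whereas Vwf exceeded Vcam1 in only 14 of 36.

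Annotated by GENCODE M21 on GRCm38, the 2 selectin genes lie on chromosome 1, Sele at chr1:164048234-164057677 and Selp at chr1:164115264-164150026, both on the plus strand. Icam1 lies at chr9:21015985-21028817 on the plus strand and Vcam1 at chr3:116109949-116129688 on the minus strand. Klf2 lies at chr8:72319033-72321656 on the plus strand and Klf4 at chr4:55527143-55532466 on the minus strand. Transcripts annotated on the opposite strand overlap exons of Cdh5, Vcam1, Icam1 and Selp. The strand setting of the authors' counting is not given in the sources used here, so reads of such partners cannot be told apart from those of the gene. The 3 partners with a count of their own, 1 at Vcam1 and 2 at Selp, had at most 5 reads in any library.

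Of the 4 adhesion genes 3 have a start region in the RefSeq promoter table (GRCm38.p6), and their 250 bases before the start are printed here because these genes differed between the strains and varied together within groups, as described further on. Capitals mark GGAANNTCC, a letter pattern of the kind bound by Rel (NF-kB) proteins, searched on both strands.

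Icam1, chr9:21015690-21015939, plus strand: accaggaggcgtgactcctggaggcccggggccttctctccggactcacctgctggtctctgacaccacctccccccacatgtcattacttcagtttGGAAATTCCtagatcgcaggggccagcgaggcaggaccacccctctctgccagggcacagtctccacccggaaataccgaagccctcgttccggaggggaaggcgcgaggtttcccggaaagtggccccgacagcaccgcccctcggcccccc

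Sele, chr1:164047984-164048233, plus strand: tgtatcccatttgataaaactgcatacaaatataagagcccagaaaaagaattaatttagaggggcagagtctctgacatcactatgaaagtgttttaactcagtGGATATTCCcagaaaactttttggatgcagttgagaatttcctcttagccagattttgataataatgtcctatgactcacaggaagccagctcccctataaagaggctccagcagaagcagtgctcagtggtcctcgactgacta

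Selp, chr1:164115014-164115263, plus strand: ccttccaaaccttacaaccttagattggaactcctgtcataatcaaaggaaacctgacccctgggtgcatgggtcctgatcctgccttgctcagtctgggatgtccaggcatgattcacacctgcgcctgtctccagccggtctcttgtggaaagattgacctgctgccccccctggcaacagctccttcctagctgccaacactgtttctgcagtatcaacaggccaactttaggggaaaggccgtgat

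The pattern occurs in 3.59% of the 32851 promoter windows of this length. Icam1 has it at -153 to -145 from the start, where the pattern matches on both strands, and Sele has it at -145 to -137, on the minus strand. The Selp window holds no match, and nor do those of Klf2 and Klf4. A match describes letters of the reference genome and was not tied to binding in these arteries, and 129X1 variants were not examined. Of the 10 genes 5 were matched in the table, and Thbd, Vwf, Cdh5, Pecam1 and Vcam1 are named only.

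The main contrast in the data was between the strains. Averaged over the 6 strata, 7 of the 10 genes were lower in 129X1 arteries and none was higher, by an edgeR quasi-likelihood test with Benjamini-Hochberg adjustment over all tested genes (threshold 0.05). In the same comparison 17.5% of all tested genes were lower, 16.3% were higher and 33.8% passed in either direction, so a strain difference was common among genes in general. The median log2 difference, 129X1 minus B6, was -0.57 over the 10 genes and -0.02 over all tested genes. Fewer cells of a type and less RNA per cell cannot be told apart in these bulk arteries, here or in any comparison that follows. Nor was it tested which cells, endothelial or other, the transcripts of the 10 genes came from.

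**Figure D1:**
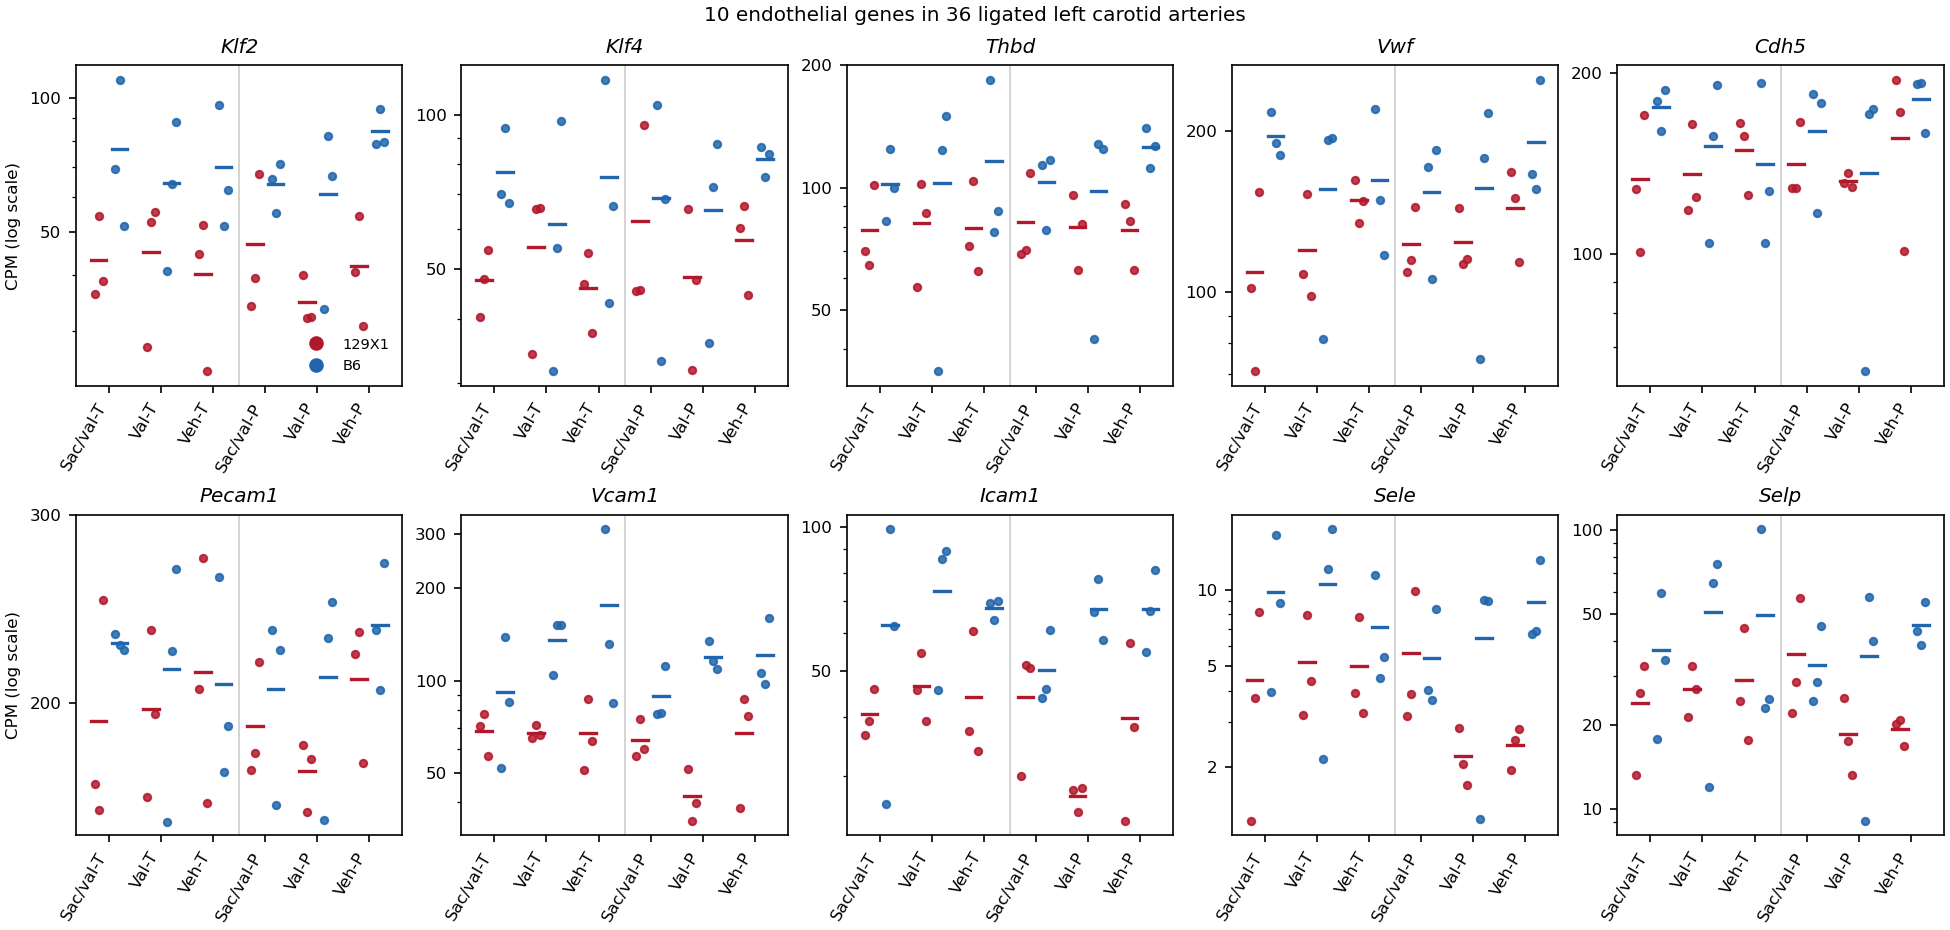
CPM (log axis) of the 10 genes in each of 36 libraries, by treatment and regimen, with 129X1 left of B6; points are mice and bars are group means (n = 3). The 129X1 points of Vcam1 lie between 34.9 and 87.4 CPM and the B6 points between 51.7 and 312 CPM.

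Klf2 had a lowest, median and highest level of 24.3, 39.8 and 67.5 CPM in 129X1 arteries, against 33.5, 68.0 and 110 CPM in B6 arteries. All 18 of the 129X1 libraries were below the B6 median, although the strains overlapped. How many of all tested genes show this was not counted, here or for the genes that follow. Klf2 averaged 42.0 ± 11.7 CPM in 129X1 and 70.0 ± 19.9 CPM in B6 (SD, n = 18 each), a 0.60-fold level (log2 difference -0.73, SE 0.15, adjusted p = 3.79e-04). The difference had the same sign in 6 of 6 strata.

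Klf4, the related factor, had 31.7, 47.7 and 95.5 CPM in 129X1 (lowest, median, highest), against a lowest of 31.6 and a median of 71.3 CPM in B6. The lowest values were nearly the same, 3 of 18 B6 libraries were above the highest 129X1 library, and 17 of 18 129X1 libraries lay under the B6 median. Its log2 difference was -0.44 (SE 0.17, adjusted p = 0.048), just inside the threshold, and it passed in only 12 of the 36 fits that left out 1 library.

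Of the coagulation genes, Vwf was lower in 129X1, with 70.9, 125 and 167.4 CPM against 74.7, 179 and 249 CPM in B6 (lowest, median, highest). Its log2 difference was -0.40 (SE 0.14, adjusted p = 0.026). All 18 of the 129X1 libraries were below the B6 median. The call was lost in 3 of 36 fits that left out 1 library, those without B6 Veh-P replicate 3, B6 Val-P replicate 3 or B6 Veh-T replicate 1.

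Thbd, a target of KLF2 in cultured endothelium, did not pass. It had 56.8, 76.6 and 108.9 CPM in 129X1 and 35.3, 115 and 184 CPM in B6, a log2 difference of -0.43 (SE 0.17, adjusted p = 0.0504). Here too all 18 of the 129X1 libraries were below the B6 median, but the 2 lowest values were from B6, in Val-T replicate 1 and Val-P replicate 1. These 2 libraries also had the highest Rag1. Thbd passed in 11 of 36 fits that left out 1 library.

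The junction genes showed the smallest differences. Cdh5 had 101, 130 and 195 CPM in 129X1 and 63.9, 173 and 193 CPM in B6, with a log2 difference of -0.15 (95% interval -0.41 to 0.10, adjusted p = 0.36). Pecam1 had 158, 181 and 273 CPM in 129X1 and 155, 225 and 270 CPM in B6, with a log2 difference of -0.15 (95% interval -0.34 to 0.04, adjusted p = 0.22). Both intervals leave out a reduction by 0.5 or more on the log2 scale. These genes and the 20 other endothelial identity genes, of which 1 was lower (Ecscr, -0.59, adjusted p = 0.010) and none higher, are the measure of endothelial transcripts set beside the other members. The 20 genes had a median log2 difference of -0.17. Among all tested genes 17.5% were lower and 16.3% higher.

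All 4 adhesion genes were lower in 129X1. Vcam1, the counter-receptor of the integrin VLA-4, had 34.9, 64.3 and 87.4 CPM in 129X1 (lowest, median, highest) and 51.7, 110 and 312 CPM in B6. All 18 of the 129X1 libraries were below the B6 median, and 13 of 18 B6 libraries were above the highest 129X1 library. Vcam1 averaged 62.8 ± 15.7 CPM in 129X1 and 122 ± 55.8 CPM in B6 (SD, n = 18 each), a 0.52-fold level (log2 difference -0.94, SE 0.15, adjusted p = 2.04e-05).

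Icam1, the ligand of the leukocyte integrin LFA-1, had 24.2, 38.6 and 60.4 CPM in 129X1 and 26.2, 65.1 and 99.0 CPM in B6. All 18 of the 129X1 libraries were below the B6 median, and the log2 difference was -0.69 (SE 0.14, adjusted p = 3.45e-04). Both integrin ligands differed with the same sign in 6 of 6 strata, and both passed in all 36 fits that left out 1 library.

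Sele had 1.23, 3.24 and 9.87 CPM in 129X1 and 1.25, 7.65 and 17.4 CPM in B6, so the lowest values of the strains were alike. Its log2 difference was -1.01 (SE 0.29, adjusted p = 0.0094), the largest of the 10 and the least precise. Selp had 13.3, 23.2 and 57.1 CPM in 129X1 and 9.07, 39.3 and 101 CPM in B6, with a log2 difference of -0.73 (SE 0.26, adjusted p = 0.028). The lowest Selp library was B6 Val-P replicate 1, which also had the lowest Cdh5 level. Sele and Selp differed with the same sign in 5 of 6 strata, the exception being prophylactic Sac/val in both. The Selp call was lost in 4 of 36 fits that left out 1 library, without B6 Val-P replicate 2, B6 Veh-T replicate 1, B6 Val-T replicate 3 or B6 Sac/val-T replicate 2.

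**Figure D2:**
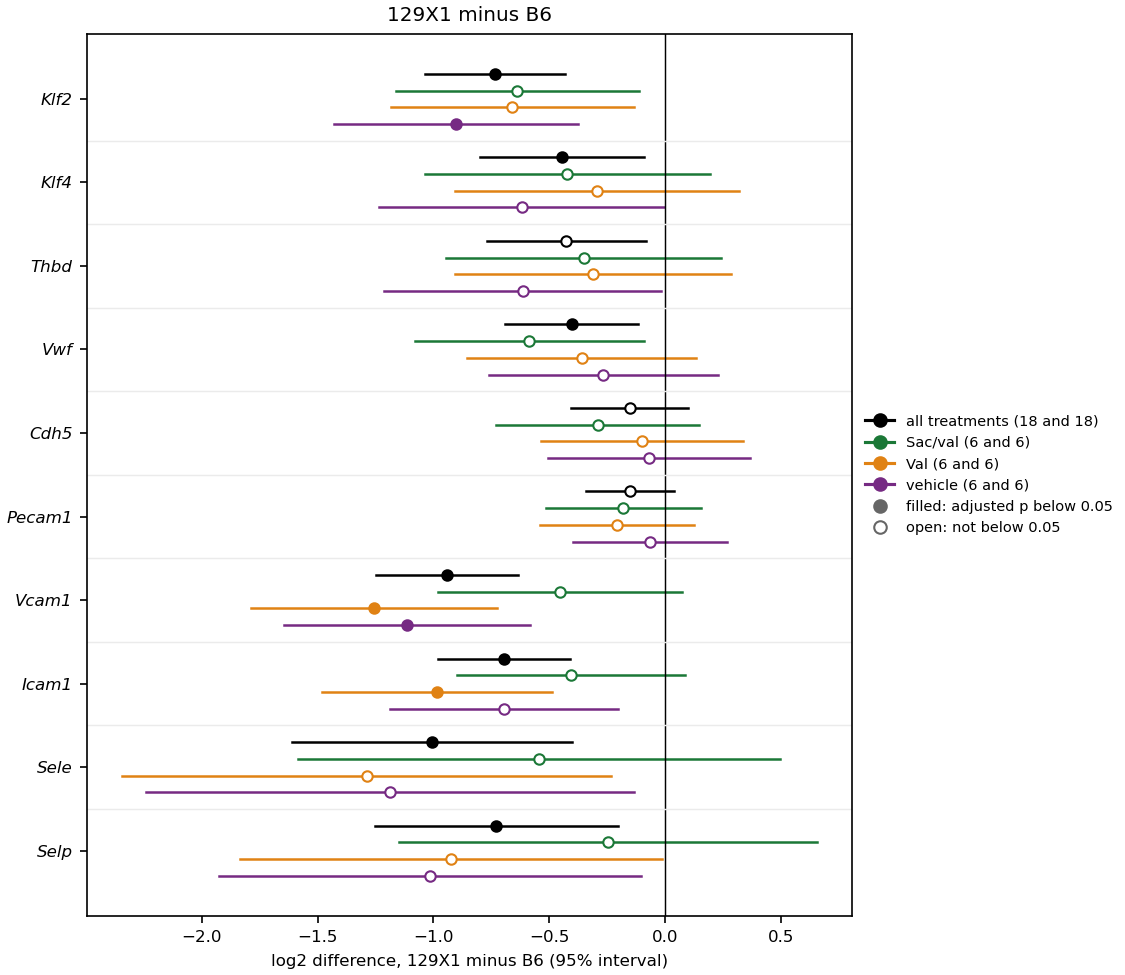
Log2 difference of each gene, 129X1 minus B6, with its 95% interval, over all treatments (18 and 18 libraries) and within Sac/val, Val and vehicle (6 and 6 each); filled points have an adjusted p below 0.05. Vcam1 and Klf2 are filled within vehicle, Vcam1 and Icam1 within Val, and no gene within Sac/val.

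The strain difference was then taken within each treatment. Under Sac/val none of the 10 genes passed, where 6.26% of all tested genes did (3.18% lower and 3.08% higher), and 2 had an unadjusted p below 0.05. Under Val, Vcam1 (-1.26, adjusted p = 0.0014) and Icam1 (-0.98, adjusted p = 0.0057) were lower in 129X1, where 20.9% of all genes passed (9.61% lower and 11.3% higher). Under vehicle, Klf2 (-0.90, adjusted p = 0.020) and Vcam1 (-1.11, adjusted p = 0.0048) were lower, where 13.5% of all genes passed (6.52% lower and 7.02% higher), and Icam1 had -0.69 with an adjusted p of 0.054. Without B6 Veh-T replicate 1, the library with the highest Vcam1 level, Vcam1 under vehicle was at -0.76 (adjusted p = 0.031) and Klf2, at -0.75 (adjusted p = 0.067), no longer passed.

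Vcam1 shows the pattern of levels. Under Sac/val its lowest, median and highest levels were 56.5, 65.4 and 77.8 CPM in 129X1 and 51.7, 81.7 and 139 CPM in B6. Under Val they were 34.9, 58.3 and 71.4 CPM in 129X1 and 104.3, 125 and 152 CPM in B6, with no overlap between the strains. For the other 9 genes the strains overlapped under every treatment. How many of all tested genes separate in this way was not counted. Under vehicle the Vcam1 levels were 38.4, 70.1 and 87.4 CPM in 129X1 and 84.8, 119 and 312 CPM in B6. The single B6 library at 312 CPM was Veh-T replicate 1. The log2 difference under Sac/val was -0.45 (95% interval -0.98 to 0.07).

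Whether the strain difference itself depended on treatment was tested by interactions. The drug differences, each taken in 129X1 minus in B6, gave 1 value of an unadjusted p below 0.05, that of Sac/val minus Val for Vcam1 (0.80 on the log2 scale, SE 0.36, unadjusted p = 0.035, adjusted p = 0.24). For Sac/val minus vehicle the Vcam1 interaction was 0.66 (SE 0.36, adjusted p = 0.95). Over all 7 interactions of strain, regimen and drug, none of the 70 values of the 10 genes passed by edgeR or by DESeq2, and 1 had an unadjusted p below 0.05. No other tested gene passed in any of them by edgeR either. For Sac/val minus Val by strain, 3565 of the 18628 tested genes had an unadjusted p below 0.05 by edgeR. An absence of calls under Sac/val therefore does not show that the strains differed less there.

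By regimen the strain differences were alike in size. Under the therapeutic regimen Klf2 (-0.71), Vcam1 (-0.94) and Icam1 (-0.64) were lower in 129X1, where 13.3% of all genes passed (6.79% lower and 6.5% higher). Under the prophylactic regimen Klf2 (-0.75), Vcam1 (-0.94) and Icam1 (-0.75) were lower, where 21.7% of all genes passed (10.7% lower and 11% higher). The Vcam1 interaction of strain with regimen was 0.00 on the log2 scale (95% interval -0.60 to 0.61).

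Other genes of the same pathways were counted from lists, against 17.5% lower and 16.3% higher among all tested genes. Of 18 further flow-responsive genes 6 were lower in 129X1 and 1 was higher (median log2 difference -0.25). The lower ones included Mapk7, the ERK5 kinase upstream of Klf2 (-0.51, adjusted p = 2.07e-05), Hmox1, heme oxygenase 1 (-1.08, adjusted p = 0.0021), Cyp1b1, a cytochrome P450 (-0.68, adjusted p = 0.0041), and Nos3, endothelial nitric oxide synthase (-0.50, adjusted p = 0.0073). Txnip, an inhibitor of thioredoxin that steady flow represses in cultured endothelium, was higher (0.49, adjusted p = 8.16e-04). Plpp3 (-0.16), Edn1 (0.06) and Piezo1 (-0.11) did not pass.

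Of 13 further adhesion and transmigration genes tested, 2 were lower and 1 was higher, no more than the 17.5% lower and 16.3% higher among all tested genes. The lower ones were the chemokines Cx3cl1 (-0.91, adjusted p = 8.46e-05) and Ccl2 (-1.77, adjusted p = 1.77e-04), and the higher one was Cd99l2, a transmigration receptor (0.37, adjusted p = 0.0016). Of 12 leukocyte counter-receptors 2 were lower, a share near that 17.5% of all genes: Cd44, an E-selectin ligand (-0.95, adjusted p = 0.0021), and Selplg, the P-selectin ligand PSGL-1 (-0.70, adjusted p = 0.028). The VLA-4 and LFA-1 subunit genes Itga4 (-0.24), Itgal (0.00) and Itgb2 (-0.31) did not pass. Of 9 thrombosis genes tested 4 were lower and 1 was higher. Gp1bb, a subunit of the platelet receptor for von Willebrand factor, was lower (-0.86, adjusted p = 0.015), and Adamts13, the protease that cleaves von Willebrand factor, was higher (1.96, adjusted p = 0.0081).

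Lists of endothelial subtypes were counted too, with no test of a difference between lists and against 17.5% lower and 16.3% higher among all genes. Of 6 capillary genes 4 were higher in 129X1, including Cd36 (0.50) and Gpihbp1 (0.54). Adipocyte genes were higher in 129X1 too, as described below, and which cells the capillary list reflects was not tested. Lower were 2 of 4 venous genes (Aplnr -0.83, Nr2f2 -0.53), 2 of 8 arterial genes (Efnb2 -0.35, Bmx -0.39) and 2 of 5 lymphatic genes tested (Flt4 -0.78, Mmrn1 -0.99). Selp and Vwf are also made by megakaryocytes. Of 6 platelet and megakaryocyte genes tested 4 were lower, including Ppbp (-2.66) and Pf4 (-1.42), and Treml1 was higher (1.54). Their sum had a lowest, median and highest level of 22.6, 32.1 and 53.3 CPM in 129X1 and 17.7, 76.8 and 119 CPM in B6.

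Genes of other cells and of cell activation also moved with strain, counted against 17.5% lower and 16.3% higher among all tested genes. Of 8 macrophage genes 7 were lower in 129X1, led by Fcgr1 (-2.40), and their sum was 280, 533 and 823 CPM in 129X1 (lowest, median, highest) against 220, 1139 and 1534 CPM in B6. All 11 NF-kB target genes were lower (median -0.69, Ccl2 also being on the adhesion list), and their sum was 173, 274 and 367 CPM in 129X1 against 248, 435 and 742 CPM in B6. Of 10 immediate early genes 7 were lower (median -0.70), and their sum was 353, 667 and 1034 CPM in 129X1 against 797, 971 and 2091 CPM in B6. Adipocyte genes (5 of 6) and brown fat genes (4 of 5) were higher in 129X1, as were 5 of 6 B cell genes. Schwann cell genes (5 of 6) were lower, with sums of 710, 1071 and 1929 CPM in 129X1 and 566, 1807 and 2593 CPM in B6. Of 6 smooth muscle genes 1 was lower. The T cell and thymus sum was 2.42, 447 and 2308 CPM in 129X1 against 6.36, 18.1 and 6308 CPM in B6. The sympathetic neuron and glomus sum had a median of 2527 CPM in 129X1 and 700.6 CPM in B6. That of skeletal muscle was 7915 against 3293 CPM and that of thyroid 6.90 against 14.05 CPM, each with wide ranges that overlapped. No marker of these lists was at 0 in every library.

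The strain values were recomputed with such lists as covariates, each list entering as its mean log2 CPM. With the endothelial score 8 of 10 genes passed, all lower, with Vcam1 at -0.92, Icam1 at -0.66, Klf2 at -0.62, Sele at -0.68 and Thbd at -0.23 (adjusted p = 0.024). With the macrophage score only Vcam1 passed (-0.53, adjusted p = 0.027), Klf2 was at -0.24 and Icam1 at -0.20. The other 7 genes turned positive without passing, at 0.11 for Klf4, 0.29 for Thbd, 0.049 for Vwf, 0.16 for Cdh5, 0.14 for Pecam1, 0.43 for Sele and 0.51 for Selp. With both scores only Klf2 passed (-0.43, adjusted p = 0.044), and Vcam1 was at -0.36 (adjusted p = 0.20). With the immediate early score Vcam1 (-0.66) and Icam1 (-0.51) passed. Calls among all tested genes numbered 6296 without a covariate and 7864, 3887, 2406 and 4346 with these scores, in the order given. The last 3 covariates were chosen after the data had been seen, and the macrophage score itself differs between the strains, so the shares of covariate and strain cannot be told apart.

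**Figure D3:**
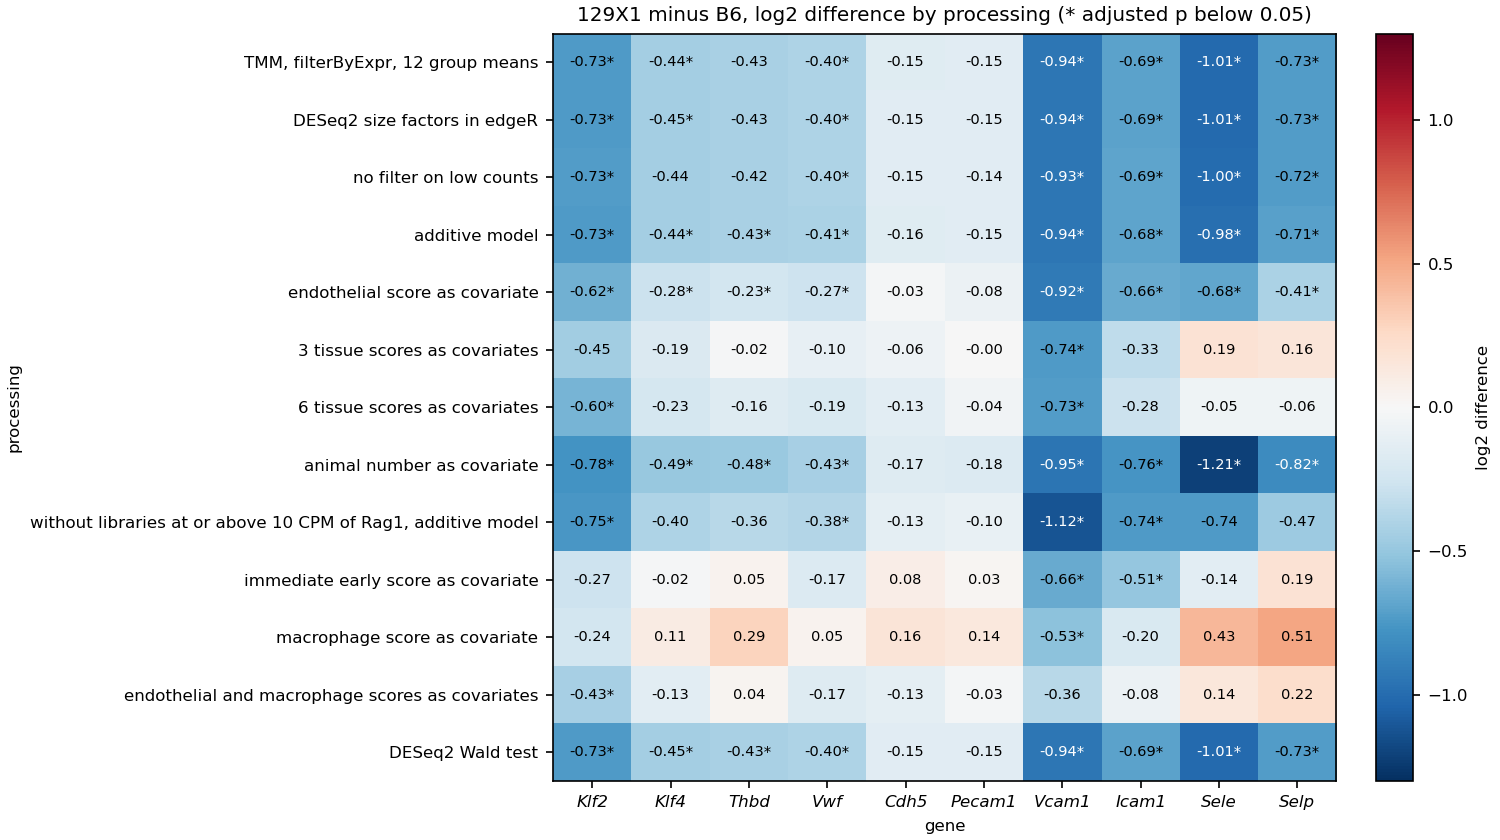
Log2 difference of each gene, 129X1 minus B6, under 13 ways of processing, of which the top one is that reported; an asterisk marks an adjusted p below 0.05. Vcam1 runs from -1.12 to -0.36 and is marked in 12 of 13, and Cdh5 and Pecam1 are marked in none.

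The strain values were also taken without the libraries rich in Rag1. When the 16 libraries that reached 10 CPM of Rag1 were left out, fitted with an additive model because 1 group was left empty, Vcam1 was at -1.12, Klf2 at -0.75, Icam1 at -0.74 and Vwf at -0.38, and these 4 passed. Klf4 (-0.40), Sele (-0.74) and Selp (-0.47) no longer did.

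None of the 10 genes passed in a drug comparison. The 3 contrasts set each drug against vehicle and then Sac/val against Val. In each, averaged over 4 combinations of strain and regimen (12 against 12 mice), 0 of 10 genes passed by edgeR or DESeq2, and 0 had an unadjusted p below 0.05. Nor did any of the 18628 tested genes pass by edgeR (0% each), with 293, 453 and 491 at an unadjusted p below 0.05 in that order, and DESeq2 called 10, 2 and 17. Both vehicle contrasts share the vehicle libraries.

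Vcam1 had the smallest p among the 10 genes in Sac/val minus vehicle. Its lowest, median and highest levels were 51.7, 76.3 and 139 CPM under Sac/val, 34.9, 87.8 and 152 CPM under Val and 38.4, 87.4 and 312 CPM under vehicle, with wide overlap. The log2 difference was -0.36 for Sac/val minus vehicle (95% interval -0.73 to 0.01, unadjusted p = 0.057) and -0.27 for Val minus vehicle (-0.64 to 0.10). Over the 36 fits that left out 1 library the value for Sac/val minus vehicle ran from -0.47 to -0.18, the value nearest 0 being that without B6 Veh-T replicate 1.

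The flow-responsive factors were closer to 0. Klf2 had 34.1, 54.7 and 110 CPM under Sac/val, 27.5, 46.7 and 88.4 CPM under Val and 24.3, 53.1 and 96.1 CPM under vehicle. Its log2 difference was 0.00 for Sac/val minus vehicle (95% interval -0.37 to 0.37), -0.17 for Val minus vehicle (-0.54 to 0.20) and 0.18 for Sac/val minus Val (-0.19 to 0.54). Klf4 had -0.01, -0.15 and 0.14 in the same order. Icam1 had -0.13, -0.09 and -0.04, and Thbd -0.11, -0.12 and 0.01.

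Over the 10 genes the log2 differences ran from -0.36 to 0.19 for Sac/val minus vehicle, from -0.27 for Vcam1 to within 0.01 of 0 for Sele in Val minus vehicle, and from -0.09 to 0.19 for Sac/val minus Val. The median half-width of their 95% intervals was 0.37, and that of Sele was widest, from -0.55 to 0.92 for Sac/val minus vehicle. A p that misses the threshold does not show that the drugs left these genes as they were. Because that half-width is not adjusted for the number of genes, changes larger than it could also go uncalled here. Within each single combination of strain and regimen, 3 against 3 mice, none of the 10 genes passed either, nor within either strain. No other tested gene passed there (0%). Genes at an unadjusted p below 0.05 numbered 4346 of 18628 for Sac/val minus Val in B6 and 318 in 129X1. In the single combinations they ran from 101 (Sac/val minus vehicle, 129X1 therapeutic) to 2400 (Sac/val minus Val, B6 prophylactic). Among the 10 genes Vcam1 alone had an unadjusted p below 0.05, for Sac/val minus vehicle in B6 (-0.69, unadjusted p = 0.012, adjusted p = 0.99994) and in B6 therapeutic mice (-0.94, unadjusted p = 0.016, adjusted p = 0.95). Without B6 Veh-T replicate 1 these values were -0.34 (unadjusted p = 0.14) and -0.24 (unadjusted p = 0.49).

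**Figure D4:**
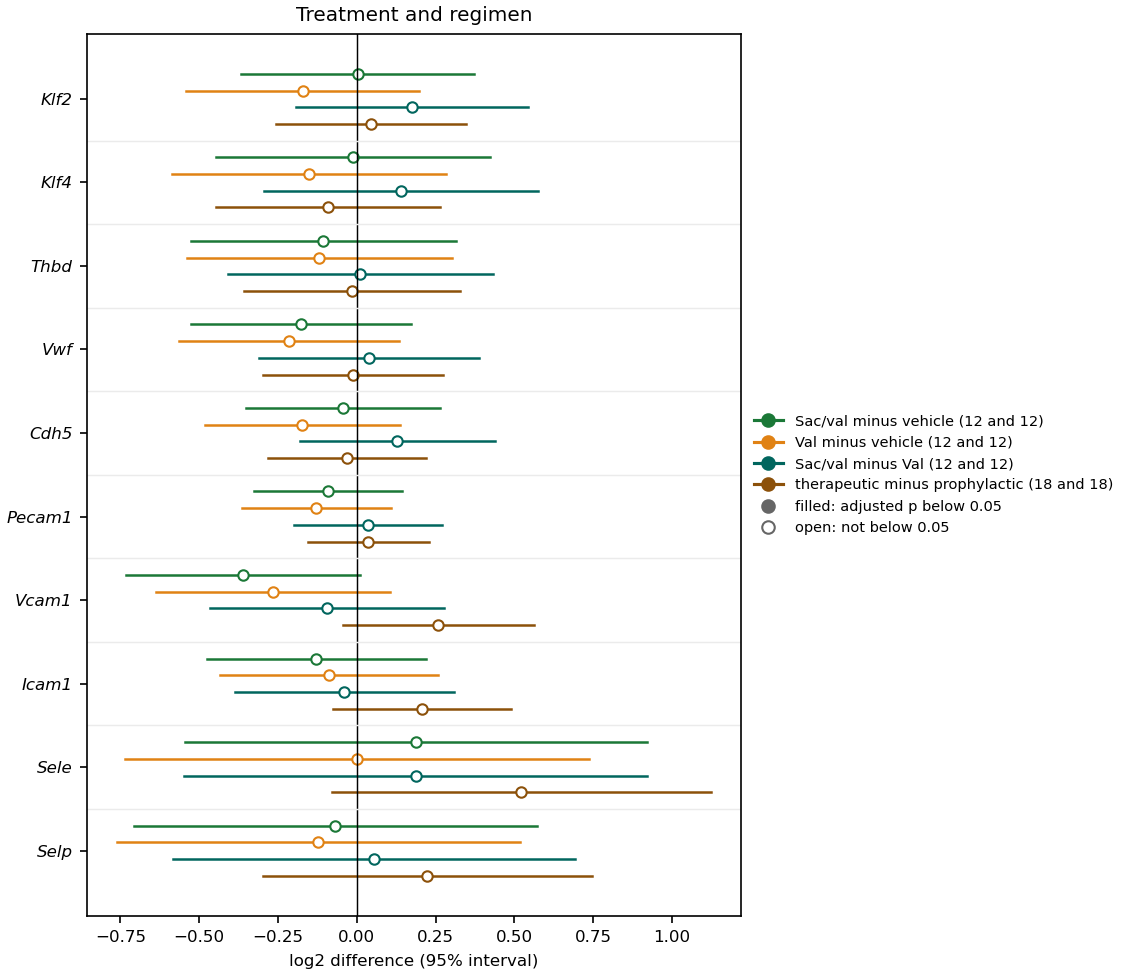
Log2 differences with 95% intervals for each drug minus vehicle and for Sac/val minus Val (12 against 12 libraries) and for therapeutic minus prophylactic (18 against 18). No point is filled, that is, no adjusted p is below 0.05, and Vcam1 in Sac/val minus vehicle is at -0.36.

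Regimen gave no call either. In therapeutic minus prophylactic, averaged over strain and treatment, 0 of 10 genes passed by edgeR or DESeq2 and 0 had an unadjusted p below 0.05. None of all tested genes passed by edgeR (0%, 599 at an unadjusted p below 0.05), and DESeq2 called 21. The largest value was that of Sele, 0.52 (95% interval -0.08 to 1.12), with 1.23, 4.95 and 17.4 CPM in therapeutic and 1.25, 3.77 and 13.2 CPM in prophylactic arteries. Vcam1 was at 0.26 (-0.04 to 0.56), Icam1 at 0.21 (-0.08 to 0.49) and Selp at 0.22 (-0.30 to 0.75), while Klf2, Klf4, Thbd, Vwf, Cdh5 and Pecam1 lay between -0.09 and 0.05. Without drug, in the vehicle mice alone, the 10 values ran from -0.21 to 0.35 and none passed.

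The genes also varied together from mouse to mouse within groups. For each library the deviation of log2 CPM from its group mean was taken, and 265 relations among the 10 genes and 22 lists were computed over 36 libraries, with permutation tests of 100000 resamples and Benjamini-Hochberg adjustment. Of the 45 pairs of the 10 genes, 37 had an adjusted p below 0.05 in the permutation test, and Pearson's r ran from 0.0055 to 0.93 with a median of 0.70. The share among pairs of all tested genes was not computed, so these values are not shown to be particular to the 10 genes. Libraries were shuffled across groups, although deviations from 12 group means keep only 24 degrees of freedom. The permutation p here and below are therefore too small, and relations near the threshold may not hold. All genes of a library share its tissue content. The T cell and thymus list was negative with all 10 genes over the 36 libraries, least so with Vcam1 and Icam1. Its r ran from -0.778 to -0.0426 over the 10 genes, with a median of -0.711. The libraries fall into Rag1-rich and Rag1-poor sets, and the same libraries enter every other r over the 36. The part of this list in the pairs was not tested.

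**Figure D5:**
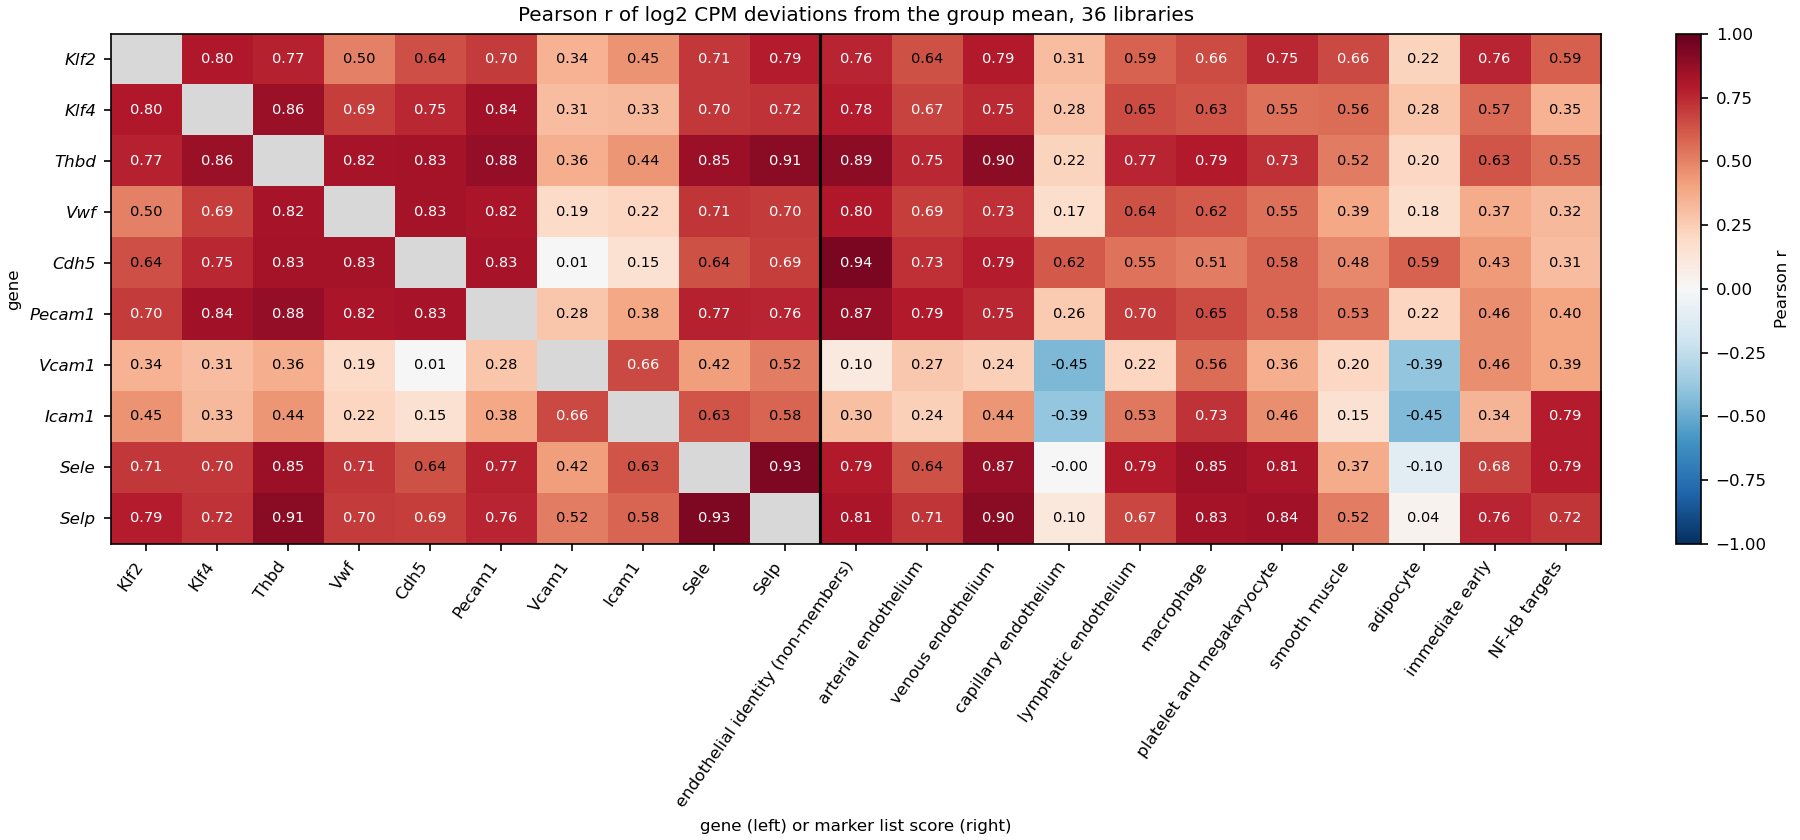
Pearson's r of deviations from the group mean across 36 libraries, between pairs of the 10 genes (left block, grey on the diagonal) and between each gene and the mean of a marker list (right block). Sele and Selp stand at 0.93, and the rows of Vcam1 and Icam1 are pale against Cdh5 (0.01 and 0.15).

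The 2 selectins gave the highest pair. Sele and Selp had r = 0.934 and Spearman's rho = 0.929 (permutation p = 1e-05 for both, the smallest these resamples can give, and adjusted p = 2.79e-05 for r), and r = 0.902 without the 2 libraries farthest from the median. The factors Klf2 and Klf4 had r = 0.802 and rho = 0.838 (permutation adjusted p = 2.79e-05), with r = 0.764 without the 2 farthest. Cdh5 and Pecam1 had r = 0.826, rho = 0.819 and the same permutation adjusted p, with r = 0.818 without the 2 farthest.

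The integrin ligands correlated with each other. Vcam1 and Icam1 had r = 0.664 and rho = 0.665 (permutation adjusted p = 2.79e-05), and r = 0.830 without the 2 farthest libraries, B6 Veh-T replicates 1 and 3. Vcam1 with Cdh5 had r = 0.0055 and rho = -0.037 (permutation adjusted p = 0.98), and Icam1 with Cdh5 had r = 0.150 and rho = 0.225 (permutation adjusted p = 0.45). Without the 2 farthest libraries r was 0.107 for Vcam1 with Cdh5 and 0.189 for Icam1 with Cdh5. With Pecam1, the other junction gene, Vcam1 had r = 0.277 and rho = 0.274 (permutation adjusted p = 0.14, r = 0.296 without the 2 farthest) and Icam1 r = 0.384 and rho = 0.469 (permutation adjusted p = 0.032, r = 0.311 without the 2 farthest). Against the 20 endothelial identity genes, Cdh5 had r = 0.940 and rho = 0.919 and Vcam1 r = 0.097 and rho = 0.121 (permutation adjusted p = 2.79e-05 for Cdh5 and 0.65 for Vcam1). These were r = 0.910 for Cdh5 and 0.119 for Vcam1 without the 2 farthest libraries.

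The macrophage list (r from 0.514 to 0.851, median 0.653) and the NF-kB list (r from 0.308 to 0.788, median 0.474) were positive with all 10 genes. Against the macrophage list Sele had r = 0.851 and rho = 0.813 (permutation adjusted p = 2.79e-05), with r = 0.785 without the 2 farthest libraries. Icam1 had r = 0.726 and rho = 0.749 at the same permutation adjusted p, with 0.753 without the 2 farthest. Vcam1 had r = 0.561 and rho = 0.609 (permutation adjusted p = 7.25e-04), with 0.643 without the 2 farthest. Against the NF-kB list Icam1 had r = 0.787 and rho = 0.751 (permutation adjusted p = 2.79e-05), with 0.707 without the 2 farthest. Klf2 had r = 0.761 and rho = 0.736 against the immediate early list, at the same permutation adjusted p and with 0.720 without the 2 farthest.

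The pattern was recomputed in libraries low in Rag1. Of 20 libraries below 10 CPM of Rag1, 5 were alone in their group and could not be centred, which left 15, 2 from 129X1 and 13 from B6, so the values are mostly those of B6. In these 15, a choice made after the data had been seen, r was 0.901 for Vcam1 and Icam1, 0.954 for Vcam1 and Sele, and 0.933 for Sele and Selp, against 0.664, 0.421 and 0.934 over all 36. In the same libraries Cdh5 had r = -0.013 with Sele and -0.142 with Selp, against 0.639 and 0.691 over all 36. No p was computed for these 15 libraries.

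The genes most alike to each member were found by the same deviations among 12498 genes with a mean of at least 5 CPM. Cdh5 was followed most closely by Tie1, then by Hspa12b (r = 0.962) and Adcy4 (0.959), and Pecam1 by Erg (0.919), Tal1 (0.911) and Lats2 (0.906). Klf4 was followed by Ly6a (0.963), Adamtsl4 (0.958) and Plpp3 (0.939), Klf2 by Rps6ka4 (0.914), Kdelr1 (0.911) and Dap (0.907), and Thbd by Chrdl1, Fkbp9 and Kdelc2 (each 0.970). Vwf was followed by Lrp1 (0.886), Mill2 (0.869) and Zcchc14 (0.867). Vcam1 had the weakest nearest neighbours, Arpc2 (0.793), H2-Eb1 (0.790) and Exoc3l4 (0.786). Icam1 was followed by Slc25a45 (0.910), Lasp1 (0.893) and Rap1b (0.885). Sele was followed by Selp (0.934), Emp1 (0.933) and Ednra (0.932), and Selp by Glis2 (0.948), Mfsd5 (0.945) and Leprot (0.943).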

How the data were processed

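Each artery's RNA (Trizol, then RNeasy Micro) went into TruSeq Stranded mRNA libraries for Illumina HiSeq sequencing, per the labels. Trimmomatic 0.36, STAR 2.5.2b, Subread 1.5.0p3 and GRCm38 are named in the submitters' processing notes. Neither the annotation release nor the strand setting is given in the sources used here. The deposited values are whole-number counts per gene symbol.

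From those counts, genes were filtered with filterByExpr over the 12 groups (18628 of 49568 kept) and scaled by TMM. One edgeR 4.0.16 quasi-likelihood fit (R 4.3.3) of 12 group means gave all comparisons, with 24 residual degrees of freedom. Calls are at a Benjamini-Hochberg adjusted p below 0.05 within a comparison. Standard errors and intervals derive from the F statistic, or from the information matrix of the fit where F was too small to give one. CPM uses TMM-scaled totals, and log2 CPM a prior count of 2 (0.5 as an alternative). The test was run on simulated counts beforehand. The 10 genes and all lists were chosen with earlier results of these data known. All 10 genes are named throughout. Of other lists, up to 4 passing genes with the smallest p are named with the counts, a few are named for contrast after their values were seen, and the 3 genes most alike to each member are given. Each library is 1 mouse, per the labels, and replicate numbers follow accession order. Alternatives were DESeq2 1.42.0 (test and size factors), no filter, an additive model, marker list scores or animal number as covariates, leaving out libraries rich in Rag1, and leaving out each library in turn. One gene of the thrombosis list is not reported here by name.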

Additional observations from a re-analysis of the deposited data

How the results depend on the processing

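The count of 7 genes lower in 129X1 stayed between 6 and 8 with DESeq2 size factors, the DESeq2 test, no filter, an additive model, the endothelial score and animal number as a covariate. It was 1 with 3 tissue scores (adipocyte, Schwann cell and skeletal muscle) as covariates. With 6 tissue scores (adipocyte, sympathetic neuron and glomus, T cell and thymus, skeletal muscle, B cell, thyroid) it was 2, and when libraries reaching 10 CPM of Rag1 were left out it was 4. Among the alternatives chosen after seeing the data, it was 2 with the immediate early score, 1 with the macrophage score and 1 with the endothelial and macrophage scores together. Calls among all tested genes also fell, from 6296 in the main fit to 3422 with 3 and 2247 with 6 tissue scores. They were 4346, 3887 and 2406 with the immediate early score, the macrophage score and both scores, in that order. Leaving out 1 library at a time gave counts from 4 to 8, with 4 only without B6 Veh-T replicate 1, where Vcam1, Klf2, Icam1 and Sele passed. Among the 7 genes, the log2 difference turned positive for Sele with 3 tissue scores (0.19), the macrophage score (0.43) and both scores (0.14). It did so for Selp with 3 tissue scores (0.16), the immediate early score (0.19), the macrophage score (0.51) and both scores (0.22), and with the macrophage score for Klf4 (0.11) and Vwf (0.049). None of these positive values passed, and the cause was not tested. Vcam1 was lower and passed in 11 of 12 alternatives, Klf2 in 9 and Icam1 in 8.

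The 0 calls in the 3 drug comparisons, the regimen comparison and the interactions were 0 under every alternative run, leave-one-out fits included (0 to 0). The interactions could not be fitted under the additive model or without the Rag1-rich libraries. Signs of these uncalled values changed in 18, 13, 37 and 18 of 140 recomputed values for Sac/val minus vehicle, Val minus vehicle, Sac/val minus Val and regimen, in that order. No paired analysis was possible because the labels tie no mice of different groups to one another, and replicate numbers only follow accession order. With 3 mice a group and a biological coefficient of variation of 0.463, the median half-width of a 95% interval was 0.30 for strain, 0.37 for drugs and 0.30 for regimen on the log2 scale. With a prior count of 0.5 in log2 CPM, r was 0.934 for Sele with Selp and 0.664 for Vcam1 with Icam1.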
